A study of Mus musculus with 24 samples.

Results

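Brain and heart were set against kidney and liver to describe the genes whose level of H3K4m3, trimethylation of lysine 4 on histone H3, separates the pairs of organs. A gene was kept when both brain and heart lay above both kidney and liver, or both lay below them, among frozen libraries and again the same way among FFPE libraries (formalin-fixed, paraffin-embedded tissue). Of 25680 genes tested, 3045 met this rule. They are called ordered genes here, 1428 of them higher in brain and heart and 1617 lower. The rule asks for the order of the organs and not for a size, so a gene can meet it with 1 organ far from the other 3. Because the rule uses the measured values, the size and direction of the ordered genes are descriptions and support nothing by themselves.

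H3K4m3 is laid down around the start sites of genes that are transcribed or kept ready for transcription. The values here are reads per gene, and the part of a gene counted was not given. How far they reflect the promoter is therefore not known. Brain and heart hold excitable cells, neurons and cardiomyocytes, which use voltage-gated channels, calcium release and cAMP signalling. Kidney tubules and liver parenchyma are polarised epithelia that reabsorb or secrete solutes, make glucose, break down amino acids and clear foreign compounds. The organs also contain vessels, connective tissue and blood cells. In bulk tissue, fewer cells of a type and less of the mark per cell cannot be told apart.

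The organs came from mice and were either flash frozen or fixed in formalin and embedded in paraffin. Strain, sex, age or number of animals was not given in the sources used here. Libraries were compared by side: the 4 brain and heart libraries (frozen and FFPE of each organ) against the 4 kidney and liver libraries. The labels list 12 H3K4m3 samples among 24, and the columns of values name neither antibody nor replicate, so an FFPE column may merge several samples. Frozen cores were crosslinked before shearing and FFPE tissue was extracted with heat, so preservation and chromatin preparation cannot be told apart. Frozen heart was the shallowest library, with 1792394 reads recovered from the values, and FFPE kidney the deepest, with 5275085. Neuron markers were highest in brain for 18 of 20 genes and cardiomyocyte markers highest in heart for 16 of 18, in each preservation type. Glia markers were highest in brain for 11 of 16 genes in frozen and 10 of 16 in FFPE libraries. Tubule markers were highest in kidney for 15 of 16 genes in frozen and 16 of 16 in FFPE libraries, and hepatocyte markers were highest in liver for 16 of 16 in both. Levels below are CPM (the deposited log2 values without the log, scaled to library size), with the 0.5 read that those values include. They are not divided by gene length, so they compare libraries at a gene and not genes with each other.

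Ordered genes made up 5.56% of tested genes in the higher direction and 6.3% in the lower direction. The frozen and FFPE libraries are separate measurements, so genes chosen in frozen tissue can be read in FFPE tissue. Among 4612 genes that were higher in frozen brain and heart by the ordering, 31.0% had the same order in FFPE tissue and 7.81% the opposite order, against 17.1% and 17.2% of all tested genes. For the 5767 genes lower in frozen brain and heart, 28.0% kept the order in FFPE and 11.3% were opposite, against 17.2% and 17.1% of all genes. With a gap between the sides of at least 1 on the log2 scale in frozen tissue, 43.2% of 465 higher genes and 51.7% of 464 lower genes had the same order in FFPE, and 6.02% and 7.76% the opposite order. Their median FFPE differences were 0.54 and -0.64. When a mean log2 level of at least 3 was also asked for, the shares were larger. Of 266 such genes higher in brain and heart, 57.9% had the same order in FFPE, with a median FFPE difference of 0.68 on the log2 scale. Of 220 such genes lower in brain and heart, 83.6% had the same order, with a median FFPE difference of -1.04. Of all tested genes at that level, 17.8% were ordered higher and 17.2% lower in FFPE tissue. The mean level is taken over frozen and FFPE libraries together, so this filter also uses the FFPE values. Read the other way, FFPE-ordered genes had the same order in frozen tissue for 32.5% of 4392 higher genes and 36.6% of 4420 lower genes, against 18.0% and 22.5% of all genes. The opposite order was found for 14.9% of these higher and 8.14% of these lower genes, against 22.5% and 18.0% of all genes.

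**Figure D1:**
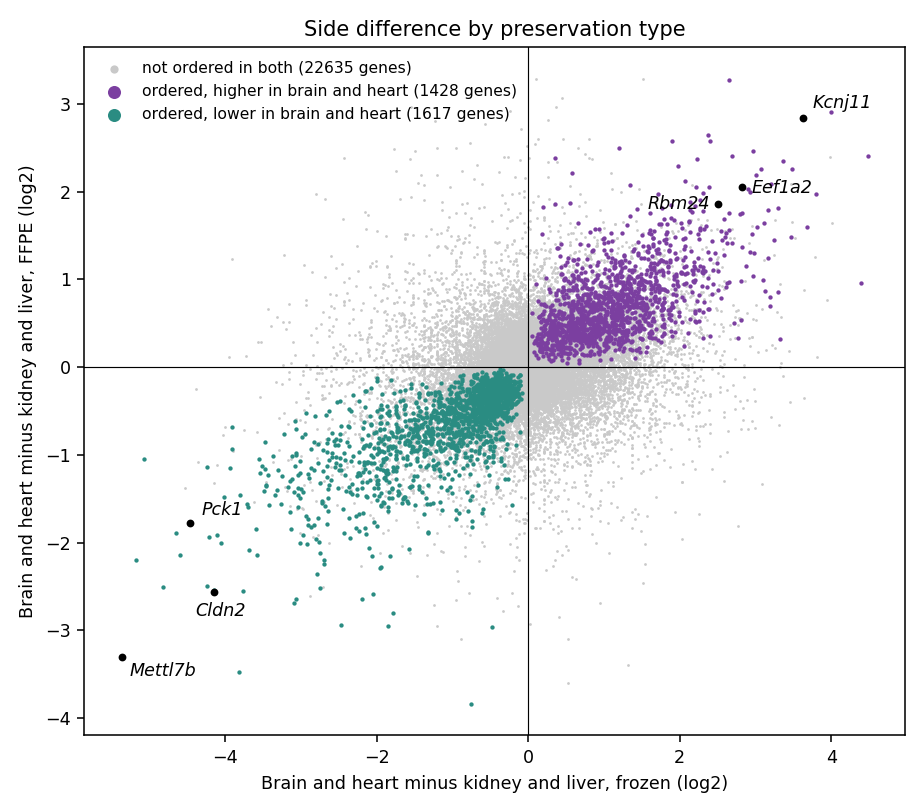
Difference of brain and heart minus kidney and liver on the log2 scale in frozen libraries (x axis) and FFPE libraries (y axis), 1 point per tested gene. The 1428 ordered genes that were higher and the 1617 that were lower in brain and heart are coloured, the other genes are grey, and 6 genes named in the text are marked. The coloured points lie in 2 opposite quadrants by the rule that chose them.

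The gap between the sides, from the library of the higher side nearest to the other side to its nearest counterpart, was small for most ordered genes. Taking the smaller of the frozen and FFPE gaps, the median was 0.18 on the log2 scale for genes higher in brain and heart and 0.14 for genes lower. A gap of at least 0.5 was found for 181 higher and 209 lower genes, and a gap of at least 1 for 22 higher and 41 lower genes. Just inside the rule lay Zfyve16 among the higher genes and Lsm4 among the lower genes, both with a gap that rounds to 0.00. Zhx1 and Coa6 lay just outside. At the level filter, Mir196a-1 was just inside with a mean log2 value of 0.025, and Igkv12-98 just outside with -0.002.

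In the limma fit of side and preservation, which counts organ differences within a side as spread, 21 genes passed at an adjusted p under 0.05. Of these, 13 were higher in brain and heart (0.0506% of tested genes) and 8 lower (0.0312%). At an unadjusted p under 0.05, 1695 genes were higher (6.6%) and 1484 lower (5.78%). All 21 genes that passed were ordered in both preservation types. A model with a term for each organ, which measures spread only as departures between frozen and FFPE, called 1198 higher genes (4.67%) and 1050 lower genes (4.09%). It called 661 of the 1428 ordered higher genes, 46.3%, and 596 of the 1617 ordered lower genes, 36.9%. Of all its calls, 55.2% of the higher and 56.8% of the lower genes were ordered. A call by the organ model, here or in a list below, thus does not by itself place both organs of a side apart from both others. The count of 21 depended on single libraries. It was 28 without FFPE heart, 4 without FFPE kidney, 1 without FFPE brain or frozen liver, and 0 without frozen brain, frozen heart, frozen kidney or FFPE liver. In those 4 fits limma gave 2204, 2900, 3268 and 2383 genes at an unadjusted p under 0.05. All 21 genes kept their sign in every fit with a library left out, but their order in both preservation types fixes this in advance. With each organ taken as a block of correlated libraries, 3 genes passed, Kcnj11, Rbm24 and Vash1.

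Among the genes higher in brain and heart, the widest gap belonged to Kcnj11 (gene ID 16514, chr7:46097123-46100952), which encodes Kir6.2, the pore of the ATP-sensitive potassium channel. Kcnj11 had 117 CPM in frozen and 138 CPM in FFPE brain and 135 and 80.4 CPM in frozen and FFPE heart, against 16.0 and 18.9 CPM in kidney and 6.47 and 11.6 CPM in liver. The lowest brain or heart library was well above the highest kidney or liver library, and brain and heart overlapped with each other. It rose 9.37-fold, a log2 difference of 3.23 ± 0.34 (SE, 4 libraries a side), with an adjusted p of 0.0241.

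Rbm24 (gene ID 666794, chr13:46418102-46431099), an RNA-binding splicing regulator of heart and skeletal muscle, had nearly equal levels in both high organs. They were 80.0 and 44.7 CPM in frozen and FFPE brain and 81.6 and 55.3 CPM in heart, against 14.7 and 14.4 CPM in kidney and 13.9 and 13.0 CPM in liver. The 4 kidney and liver libraries differed little from each other, and frozen libraries of brain and heart were higher than their FFPE libraries. The log2 difference was 2.18 ± 0.21, with an adjusted p of 0.0241. Eef1a2 (gene ID 13628, chr2:181141758-181157015), the elongation factor 1A form that neurons and muscle use, had 106 and 93.4 CPM in brain and 52.8 and 43.3 CPM in heart, frozen and FFPE, against 13.3 and 14.0 CPM in kidney and 8.44 and 16.7 CPM in liver. Brain was higher than heart at Eef1a2, and its log2 difference between the sides was 2.44 ± 0.34, with an adjusted p of 0.0472.

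The promoter windows of Rbm24 and Eef1a2, and of Cldn2 and Krt8 described below, are shown because H3K4m3 marks this part of a gene. Each runs 5′ to 3′ on the gene's strand from 250 bases before to 50 after the start site in RefSeq (build GRCm38.p6), with CG dinucleotides in capitals.
Rbm24, chr13:46418050-46418349, plus strand: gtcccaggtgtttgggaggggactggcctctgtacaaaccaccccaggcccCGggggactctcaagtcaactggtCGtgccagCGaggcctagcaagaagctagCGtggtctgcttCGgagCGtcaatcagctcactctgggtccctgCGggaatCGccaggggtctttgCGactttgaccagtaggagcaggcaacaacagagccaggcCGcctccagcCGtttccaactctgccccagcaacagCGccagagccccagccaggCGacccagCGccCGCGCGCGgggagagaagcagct
Eef1a2, chr2:181156966-181157265, minus strand: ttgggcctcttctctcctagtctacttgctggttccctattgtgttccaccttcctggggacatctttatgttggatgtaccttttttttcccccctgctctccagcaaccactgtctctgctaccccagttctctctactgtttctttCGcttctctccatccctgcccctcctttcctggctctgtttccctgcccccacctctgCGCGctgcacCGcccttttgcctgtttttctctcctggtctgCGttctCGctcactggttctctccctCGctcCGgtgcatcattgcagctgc
Cldn2, chrX:139800558-139800857, plus strand: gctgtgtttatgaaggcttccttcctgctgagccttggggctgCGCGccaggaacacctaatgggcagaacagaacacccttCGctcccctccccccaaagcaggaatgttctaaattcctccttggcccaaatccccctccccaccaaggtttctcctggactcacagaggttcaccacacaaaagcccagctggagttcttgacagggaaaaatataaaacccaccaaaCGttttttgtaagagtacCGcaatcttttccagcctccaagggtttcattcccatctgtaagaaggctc
Krt8, chr15:102004293-102004592, minus strand: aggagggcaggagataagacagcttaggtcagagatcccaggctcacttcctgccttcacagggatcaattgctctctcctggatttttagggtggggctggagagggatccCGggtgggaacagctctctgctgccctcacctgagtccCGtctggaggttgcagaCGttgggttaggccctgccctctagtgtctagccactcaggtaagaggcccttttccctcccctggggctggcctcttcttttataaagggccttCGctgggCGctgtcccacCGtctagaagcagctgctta
The Rbm24 window held 18 CG dinucleotides and the Eef1a2 window 8, against 5 in Cldn2 and 6 in Krt8. The letters TATAAA, searched on both strands, were found in the Cldn2 and Krt8 windows and not in those of Rbm24 and Eef1a2. They did not follow direction in other genes that passed. The window of Fam181b, higher in brain and heart, held them, and that of Klhdc7a, lower, did not. Of the 18321 tested genes with a window, 13.0% hold these letters. None of the 4 windows held CAAAGTCCA (Hnf4, in 0.442% of all windows), CTATTTATA or CTATTTTTA (Mef2, 0.895%) or CAGCACC (part of the REST motif, 7.2%). Windows were matched for 67.6% of ordered higher and 75.5% of ordered lower genes, under 80%, so a check of promoter sequence over these sets is void and no share over them is given.

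Phyhip, whose product binds the enzyme phytanoyl-CoA hydroxylase, had 101 and 112 CPM in frozen and FFPE brain and 102 and 56.8 CPM in heart, against 18.3 and 18.5 CPM in kidney and 8.83 and 16.7 CPM in liver. Its log2 difference was 2.59 ± 0.31 (adjusted p = 0.0318), with FFPE heart the lowest of the high libraries and frozen liver the lowest of all. Vash1, vasohibin, which trims the end of tubulin, had 265 and 191 CPM in brain and 205 and 183 CPM in heart, against 69.2 and 65.7 CPM in kidney and 75.5 and 83.4 CPM in liver, frozen and FFPE. The spread within each side was small at Vash1, with a log2 difference of 1.51 ± 0.16 and an adjusted p of 0.0241. Fam181b had 131 and 89.4 CPM in brain and 180 and 63.5 CPM in heart, against 37.2 and 25.9 CPM in kidney and 23.3 and 12.7 CPM in liver, and passed with a log2 difference of 2.22 ± 0.27 (adjusted p = 0.0323). Every organ had less at Fam181b in FFPE than in frozen tissue.

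The other genes that passed in this direction differed by 1.08 to 1.60 on the log2 scale. Hey1, a repressor downstream of Notch, differed by 1.40 ± 0.20 on the log2 scale, and Bhlhe41, a repressor tied to the circadian clock, by 1.41 ± 0.20. Pcdh7, a protocadherin of the cell surface, differed by 1.53 ± 0.20, Prr7, a membrane protein of synapses, by 1.08 ± 0.15 and Inka2 by 1.17 ± 0.15. Lhfp differed by 1.57 ± 0.22. Without a statement on strand, reads of overlapping genes cannot be told apart. This limit applies to Lhfp (with C130075A20Rik), Pcdh7 (4932441J04Rik and Gm17977) and Hey1 (LOC115489673), and among the genes lower in brain and heart to Rassf7 (Lmntd2), Klhdc7a (Mir2139), Cblc (LOC115486450) and Plekhg6 (Gm52918). Some of the list members described below, such as Kcnh2 (Gm15589) and Pde3a (Gm28523 and Gm10400), overlap annotated genes too. Gm9899, at 1.60 ± 0.21, is outside the rule for named genes and is given as the remaining gene that passed. It overlaps Kcnk3, a background potassium channel that was not ordered and differed by 0.83 ± 0.34 with an adjusted p of 0.371.

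**Figure D2:**
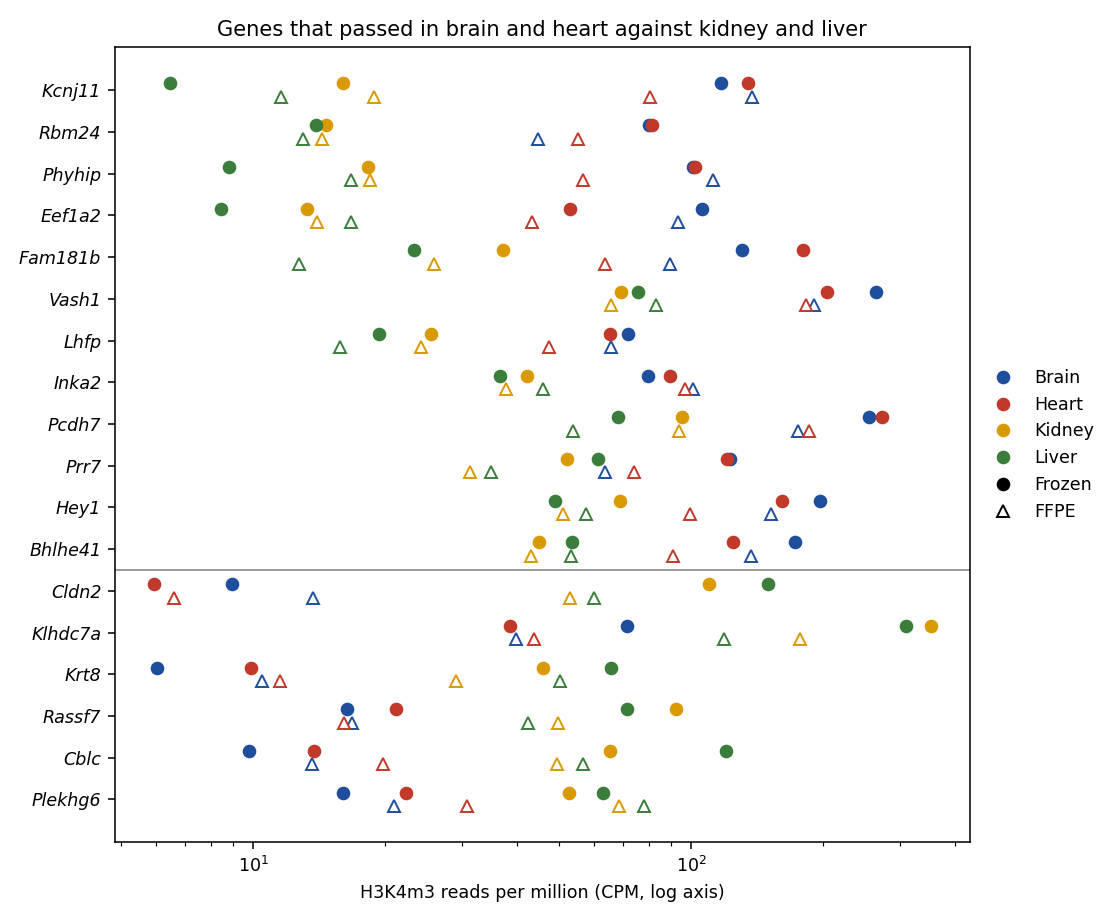
H3K4m3 level in CPM (log axis) of the 18 named genes that passed, 1 point per library, coloured by organ, filled circles for frozen and open triangles for FFPE libraries. Above the line, the 4 brain and heart libraries of each of 12 genes lie to the right of the 4 kidney and liver libraries of the same preservation type, and below it, for 6 genes, to the left. Levels are not divided by gene length and do not compare genes.

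Among the genes lower in brain and heart, Cldn2 had the largest difference among named genes that passed. Cldn2 (gene ID 12738, chrX:139800808-139811386) encodes claudin-2, which forms cation and water pores in tight junctions of leaky epithelia such as the proximal tubule. It had 8.94 and 13.7 CPM in frozen and FFPE brain and 5.93 and 6.58 CPM in heart, against 110 and 53.0 CPM in kidney and 150 and 59.9 CPM in liver. The sides did not overlap in either preservation type, and kidney and liver were lower in FFPE than in frozen tissue. Cldn2 fell 10.2-fold, a log2 difference of -3.36 ± 0.38 with an adjusted p of 0.0292.

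Krt8 (gene ID 16691, chr15:101996711-102004342), a keratin of simple epithelia, had 6.03 and 10.5 CPM in frozen and FFPE brain and 9.88 and 11.5 CPM in heart, against 45.8 and 29.1 CPM in kidney and 65.7 and 50.3 CPM in liver. Brain and heart lay within a narrow range at Krt8, and its log2 difference was -2.31 ± 0.32 (adjusted p = 0.0472). Klhdc7a, a kelch-repeat gene, had 71.3 and 39.9 CPM in brain and 38.7 and 43.9 CPM in heart, against 353 and 177 CPM in kidney and 310 and 119 CPM in liver, and a log2 difference of -2.22 ± 0.25 (adjusted p = 0.0292). Rassf7, a Ras-association family member, had 16.4 and 16.8 CPM in brain and 21.2 and 16.1 CPM in heart, against 92.2 and 49.8 CPM in kidney and 71.6 and 42.4 CPM in liver. Its log2 difference was -1.80 ± 0.22 (adjusted p = 0.0318), and both kidney and liver were lower in FFPE tissue. Cblc, a ubiquitin ligase of the Cbl family, differed by -2.31 ± 0.32 and Plekhg6, a guanine nucleotide exchange factor, by -1.57 ± 0.21. Outside the rule for named genes, 4930442L01Rik passed at -3.35 ± 0.39 and 4930556J24Rik at -2.57 ± 0.36. The first overlaps Pdzk1, a scaffold of apical transporters, which was not ordered and differed by -0.87 ± 0.38 with an adjusted p of 0.388.

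The gene lists cover a small part of the ordered genes. The excitable-cell lists hold 50 of the 1428 ordered higher, and the epithelial and metabolic lists 132 of the 1617 ordered lower. The ordered genes as a whole were not sorted by function. The lists hold genes already known for excitable cells or for kidney and liver epithelia, so their direction is no independent evidence. Across 8 lists of excitable-cell genes, 50 of 257 tested members, 19.5%, were ordered higher in brain and heart and 0 ordered lower, against 5.56% and 6.3% of all genes. Their median log2 difference was 0.55, against -0.0285 over all tested genes, and 2 members passed, Kcnj11 and Rbm24. The organ model called 84 members higher and 1 lower, Sntb1, where it called 4.67% of all tested genes higher and 4.09% lower. The counts for single lists below are to be read against these shares. Across 8 lists of epithelial and metabolic genes, 132 of 324 members, 40.7%, were ordered lower and 1 ordered higher, Oat. Their median log2 difference was -0.85, 2 members passed, Cldn2 and Krt8, and the organ model called 158 lower and 0 higher.

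**Figure D3:**
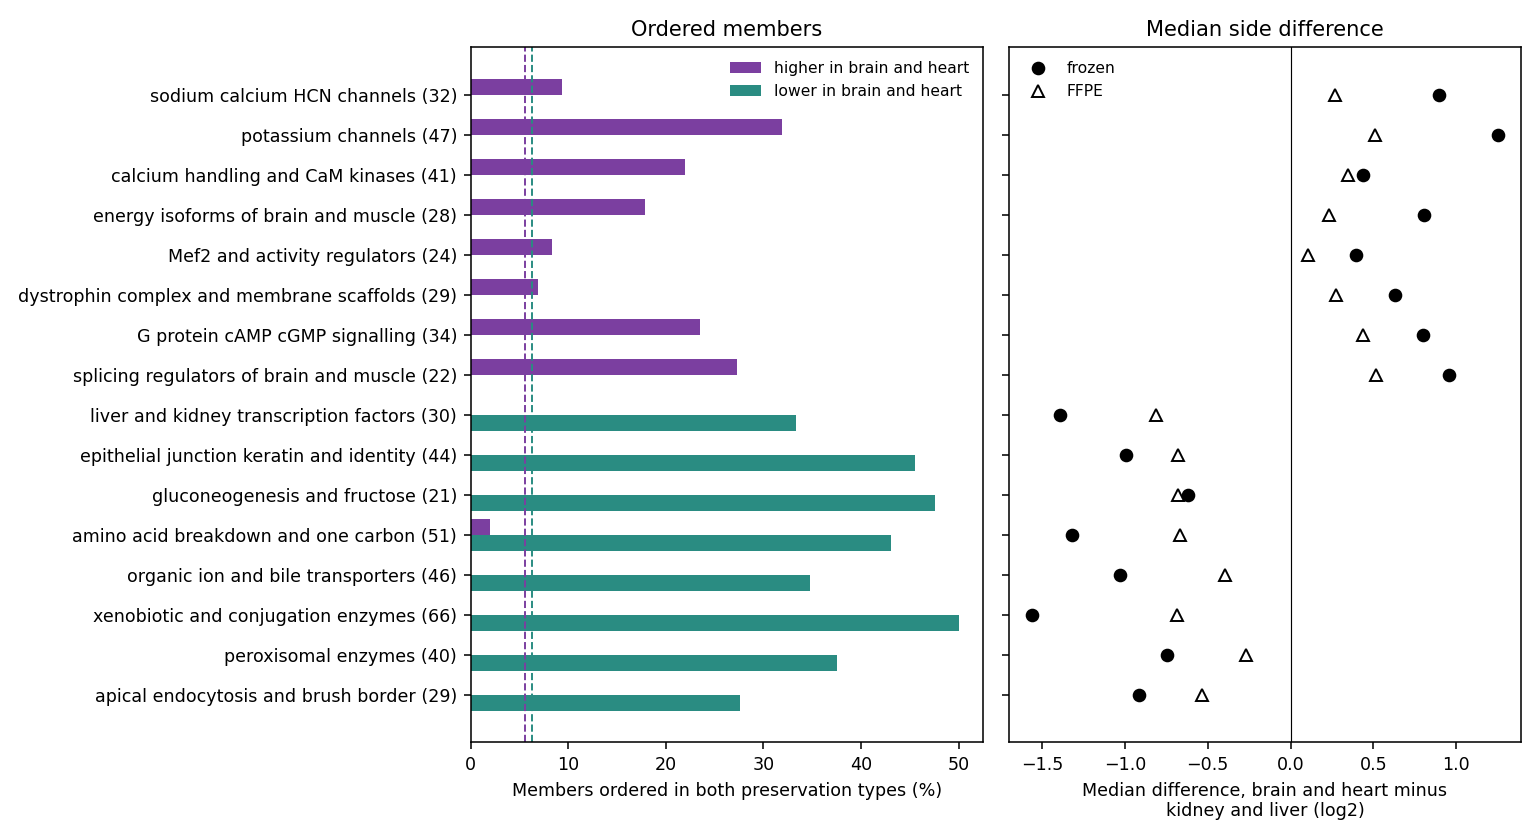
Left, share of the tested members of each list (number in brackets) that were ordered in both preservation types, higher or lower in brain and heart, with dashed lines at the shares of all tested genes, 5.56% and 6.3%. Right, median log2 difference of brain and heart minus kidney and liver over each list in frozen and FFPE libraries. The 8 excitable-cell lists have positive medians and the 8 epithelial and metabolic lists negative medians in both preservation types. A median over the sides need not hold for both organs. The mean log2 level of sodium, calcium and HCN channels was 5.52 in FFPE heart, against 5.57 in FFPE kidney and 5.61 in FFPE liver. That of the energy isoforms was 4.8 in FFPE brain and 4.82 in FFPE kidney. In the other lists the mean levels of both organs of a side lay apart from both others.

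Potassium channels, which set resting potential and end the action potential, had the largest share of ordered members among the excitable-cell lists. Of 47 members, 15 were ordered higher (31.9%, against 5.56% of all genes), 1 passed and 23 were called higher by the organ model. The median log2 difference was 0.51 in FFPE and 1.25 in frozen tissue. Kcnh2, the hERG channel that repolarises the heart, had 77.1 and 63.2 CPM in frozen and FFPE brain and 65.8 and 83.1 CPM in heart, against 26.8 and 33.2 CPM in kidney and 15.1 and 22.3 CPM in liver. Its difference of 1.62 ± 0.25 narrowly missed the threshold at an adjusted p of 0.0531. Kcnj2, the Kir2.1 inward rectifier, had 77.1 and 50.7 CPM in brain and 54.5 and 85.0 CPM in heart, against 25.9 and 39.1 CPM in kidney and 26.5 and 28.6 CPM in liver, a difference of 1.14 ± 0.23 (adjusted p = 0.109).

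In other potassium channels the partner organs stood far apart although both lay above kidney and liver. Kcna5, a delayed rectifier of the atria, had 30.5 and 25.5 CPM in brain and 140 and 139 CPM in heart, frozen and FFPE, against 14.7 and 23.7 CPM in kidney and 6.08 and 13.4 CPM in liver. Kcna2, an axonal channel, had the reverse, with 230 and 276 CPM in brain and 49.9 and 91.4 CPM in heart, against 33.6 and 60.9 CPM in kidney and 29.2 and 77.6 CPM in liver. Their adjusted p-values were 0.202 and 0.257, since the fit counts the distance between brain and heart as spread. Kcnj3, the G protein-gated channel GIRK1 of heart and brain, had 83.7 and 60.0 CPM in brain and 30.8 and 16.4 CPM in heart, against 14.2 and 5.64 CPM in kidney and 2.94 and 5.72 CPM in liver (adjusted p = 0.126). Kcnn2, a calcium-activated channel, went most against the list at -0.64 ± 0.65, with its highest level, 121 CPM, in frozen liver.

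Of 32 sodium, calcium and HCN channels, which carry the inward currents of excitable cells, 3 were ordered higher (Hcn4, Cacna2d1 and Scn3b), 9.38% against 5.56% of all genes. Of these channels 0 passed and 11 were called by the organ model. Hcn4, the main pacemaker channel, had 45.1 and 38.0 CPM in frozen and FFPE brain and 33.6 and 36.9 CPM in heart, against 16.0 and 30.7 CPM in kidney and 17.9 and 28.8 CPM in liver. Its difference was 0.33 on the log2 scale in FFPE and 1.20 in frozen tissue. Scn10a, a sodium channel of sensory neurons, went most against the list at -0.18 ± 0.28.

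For calcium handling and calmodulin-dependent kinases, 9 of 41 members were ordered higher (22.0%, against 5.56% of all genes). The organ model called 11 members, and 0 passed. Camk2a, a kinase subunit best known from forebrain neurons, was as high in heart as in brain, with 37.6 and 49.2 CPM in frozen and FFPE brain and 42.6 and 63.2 CPM in heart. Kidney had 22.3 and 38.9 CPM and liver 12.8 and 26.0 CPM, and the difference was 1.03 ± 0.25 (adjusted p = 0.161). Casq2, the calcium store protein of cardiac muscle, had 17.7 and 20.0 CPM in brain and 35.3 and 28.0 CPM in heart, against 10.1 and 14.9 CPM in kidney and 4.51 and 16.5 CPM in liver. Itpr1, the inositol trisphosphate receptor, went most against the list at -0.33 ± 0.15 and was not ordered.

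G protein, cAMP and cGMP signalling genes had 8 of 34 members ordered higher (23.5%, against 5.56% of all genes). The organ model called 13 members, and 0 passed. Pde3a, a phosphodiesterase that limits cAMP in heart and vessels, had 97.0 and 72.3 CPM in frozen and FFPE brain and 214 and 94.8 CPM in heart, against 53.0 and 40.7 CPM in kidney and 39.4 and 34.4 CPM in liver, a difference of 1.40 ± 0.26 (adjusted p = 0.0977). Akap6, which anchors protein kinase A in muscle and neurons, differed by 1.05 ± 0.22 (adjusted p = 0.125), and Adcy5, an adenylyl cyclase of striatum and heart, by 0.93 ± 0.22 (adjusted p = 0.154). Gnao1, the G protein subunit Go alpha, had 151 and 153 CPM in brain and 77.0 and 68.4 CPM in heart, against 39.9 and 61.8 CPM in kidney and 27.3 and 61.0 CPM in liver. Brain was about as far above heart at Gnao1 as heart above kidney in frozen tissue, and in FFPE tissue heart lay close to kidney and liver.

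Splicing regulators of brain and muscle had 6 of 22 members ordered higher (27.3%), Rbm24 among them, and 12 called by the organ model. Celf2 had 105 and 98.1 CPM in frozen and FFPE brain and 102 and 96.0 CPM in heart, against 48.5 and 72.0 CPM in kidney and 51.2 and 79.9 CPM in liver, with an adjusted p of 0.163. Nova2, best known as a neuronal splicing factor, had 135 and 131 CPM in brain and 142 and 164 CPM in heart, against 59.3 and 89.9 CPM in kidney and 109 and 114 CPM in liver (adjusted p = 0.252). At both genes heart was about level with brain. Of the transcription regulators of the Mef2 and activity list, 2 of 24 were ordered higher, 8.33% against 5.56% of all genes. They were Hdac9 and Camta1, with differences of 1.13 ± 0.27 and 0.59 ± 0.18. Of dystrophin complex and membrane scaffold genes, 2 of 29 were ordered higher, 6.9%, Dtna and Cdh13, with 1.13 ± 0.27 and 0.94 ± 0.33. Both shares are close to that of all genes. The organ model called 3 and 4 members of these lists higher, and 0 members passed in either. Sntb1, a syntrophin, went most against its list at -1.13 ± 0.46 with 238 CPM in frozen liver.

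Of the lists lower in brain and heart, liver and kidney transcription factors had 10 of 30 members ordered lower (33.3%, against 6.3% of all genes). The organ model called 18 members, and 0 passed. The median log2 difference was -0.81 in FFPE and -1.39 in frozen tissue. Hnf4a, the nuclear receptor that directs hepatocyte and tubule genes, had 10.6 and 25.9 CPM in frozen and FFPE brain and 18.3 and 26.8 CPM in heart, against 46.2 and 38.9 CPM in kidney and 132 and 75.0 CPM in liver. Nr1h4, the bile acid receptor FXR, differed by -1.86 ± 0.39 (adjusted p = 0.122) and Nr1i2, the xenobiotic receptor PXR, by -1.60 ± 0.52 (adjusted p = 0.281). Lhx1, a factor of kidney development and of brain, went against the list at 0.54 ± 0.63, with 148 and 177 CPM in brain and 31.3 and 53.1 CPM in heart, against 110 and 94.2 CPM in kidney and 20.2 and 46.3 CPM in liver. Brain and kidney were the high organs at Lhx1.

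Epithelial junction, keratin and identity genes had 20 of 44 members ordered lower (45.5%, against 6.3% of all genes). The organ model called 26 members, and 2 passed. Cldn3, a sealing claudin, had 8.52 and 10.5 CPM in frozen and FFPE brain and 17.8 and 18.5 CPM in heart, against 70.1 and 31.0 CPM in kidney and 317 and 81.3 CPM in liver (adjusted p = 0.123). Cdh1, E-cadherin, had 15.2 and 27.6 CPM in brain and 8.75 and 23.4 CPM in heart, against 72.8 and 44.1 CPM in kidney and 48.1 and 37.9 CPM in liver (adjusted p = 0.154). Esrp2, an epithelial splicing factor, differed by -1.72 ± 0.37 and Erbb3, a receptor of the EGF receptor family, by -1.07 ± 0.18, with adjusted p-values of 0.131 and 0.0739. Krt18, the partner of Krt8, was low everywhere, with 0.623 and 4.08 CPM in brain and 2.54 and 2.91 CPM in heart, against 2.93 and 12.4 CPM in kidney and 12.0 and 12.7 CPM in liver. The frozen brain value corresponds to 1 read, below the 1.25 CPM of 3 reads there. Cldn8, a claudin of distal tubules, had 5.61 and 7.68 CPM in brain and 5.93 and 10.3 CPM in heart, against 120 and 81.1 CPM in kidney and 7.26 and 14.4 CPM in liver. It met the rule although liver lay only a little above heart.

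Genes for making glucose and using fructose had 10 of 21 members ordered lower (47.6%, against 6.3% of all genes). The organ model called 9 members, and 0 passed. Fbp1, fructose bisphosphatase, had 5.20 and 9.96 CPM in frozen and FFPE brain and 5.36 and 4.75 CPM in heart, against 44.9 and 20.1 CPM in kidney and 89.3 and 45.6 CPM in liver, a difference of -2.86 ± 0.44 (adjusted p = 0.0536). Pck1, the cytosolic carboxykinase that commits carbon to glucose, had 11.4 and 15.3 CPM in brain and 9.31 and 14.9 CPM in heart, against 184 and 66.5 CPM in kidney and 282 and 40.0 CPM in liver, a difference of -3.12 ± 0.49 (adjusted p = 0.056). G6pc, the phosphatase that releases free glucose, had 8.10 and 13.2 CPM in brain and 6.49 and 17.6 CPM in heart, against 33.2 and 32.6 CPM in kidney and 107 and 39.3 CPM in liver (adjusted p = 0.125). All 3 are ordered genes, so kidney and liver lay above brain and heart at them in both preservation types by the rule itself.

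Amino acid breakdown and one-carbon genes had 22 of 51 members ordered lower (43.1%, against 6.3% of all genes). The organ model called 31 members, and 0 passed. Cbs, cystathionine synthase, which draws homocysteine into cysteine synthesis, had 15.6 and 17.0 CPM in frozen and FFPE brain and 15.5 and 18.2 CPM in heart, against 33.2 and 26.7 CPM in kidney and 103 and 49.1 CPM in liver. Brain and heart were level at Cbs, and the difference was -1.48 ± 0.37 (adjusted p = 0.174). Bhmt2, a homocysteine methyltransferase, differed by -1.84 ± 0.43 (adjusted p = 0.154). Oat, ornithine aminotransferase, was ordered the other way, with 32.2 and 26.8 CPM in brain and 33.6 and 42.4 CPM in heart, against 30.0 and 25.0 CPM in kidney and 19.0 and 20.2 CPM in liver. Its difference of 0.52 ± 0.24 had an adjusted p of 0.412, and brain was barely above kidney.

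Transporters of organic ions and bile acids had 16 of 46 members ordered lower (34.8%, against 6.3% of all genes). The organ model called 16 members, and 0 passed. Slc22a18, an organic cation transporter, had 6.44 and 11.3 CPM in frozen and FFPE brain and 9.88 and 12.4 CPM in heart, against 27.7 and 27.5 CPM in kidney and 35.9 and 32.3 CPM in liver (adjusted p = 0.0667). Slc17a3, a urate and phosphate transporter, differed by -1.59 ± 0.27 (adjusted p = 0.0742). Slc22a28 differed by -2.63 ± 0.48 (adjusted p = 0.0919), but it belongs to a cluster of near-identical genes whose reads may be split or lost, so its value is uncertain. Of brush border and endocytosis genes, 8 of 29 were ordered lower (27.6%), 0 passed and 11 were called by the organ model. Anpep, aminopeptidase N, had 7.27 and 23.6 CPM in brain and 11.0 and 21.6 CPM in heart, against 59.3 and 38.2 CPM in kidney and 123 and 74.3 CPM in liver (adjusted p = 0.106). Lrp2, megalin, the endocytic receptor of the proximal tubule, met the rule by a gap of 0.01, with 49.7 and 94.7 CPM in brain and 56.7 and 79.8 CPM in heart, against 106 and 129 CPM in kidney and 57.1 and 115 CPM in liver.

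Xenobiotic and conjugation enzymes had the largest share of ordered members, 33 of 66 (50.0%, against 6.3% of all genes). The organ model called 36 members, and 0 passed. All 66 differences had a negative sign, with a median log2 difference of -0.68 in FFPE and -1.56 in frozen tissue. Acsm1, which activates medium-chain acids for glycine conjugation, had 8.10 and 12.4 CPM in frozen and FFPE brain and 3.10 and 7.81 CPM in heart, against 28.2 and 29.6 CPM in kidney and 50.4 and 39.6 CPM in liver, a difference of -2.35 ± 0.41 (adjusted p = 0.0761). At others liver stood far above kidney. Cyp2d9 had 4.36 and 8.06 CPM in brain and 3.10 and 10.3 CPM in heart, against 14.7 and 16.4 CPM in kidney and 274 and 71.8 CPM in liver. The Cyp2d, Ugt2b and Ugt1a genes have near-identical or overlapping copies, and the Ugt1a genes share exons, so the split of reads among them is uncertain. Of peroxisomal enzymes, 15 of 40 were ordered lower (37.5%), 0 passed and 13 were called by the organ model. Slc27a2, a very long-chain fatty acid transporter and synthetase, had 22.7 and 17.0 CPM in brain and 12.7 and 13.6 CPM in heart, against 62.5 and 49.6 CPM in kidney and 225 and 69.9 CPM in liver (adjusted p = 0.0742).

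Isoforms of energy metabolism known from brain and muscle had 5 of 28 members ordered higher (17.9%, against 5.56% of all genes). The organ model called 7 members, and 0 passed. Slc25a4, the ADP/ATP carrier of heart and muscle mitochondria, had 87.1 and 57.7 CPM in frozen and FFPE brain and 80.4 and 49.8 CPM in heart, against 57.1 and 36.0 CPM in kidney and 13.1 and 16.2 CPM in liver (adjusted p = 0.247). Ckb, brain creatine kinase, had 291 and 216 CPM in brain and 150 and 81.9 CPM in heart, against 122 and 81.1 CPM in kidney and 20.2 and 50.3 CPM in liver, so heart and kidney were nearly level in FFPE tissue.

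Several metabolic families had copies that lay on opposite sides, and 9 families were set side by side after their values had been seen. Of glucose transporters, Slc2a3, the high-affinity neuronal form, had 77.1 and 63.6 CPM in frozen and FFPE brain and 36.4 and 38.7 CPM in heart, against 15.1 and 35.2 CPM in kidney and 13.1 and 22.1 CPM in liver. Slc2a2, the form that lets glucose out of liver and tubule cells, had 13.5 and 17.5 CPM in brain and 12.1 and 13.6 CPM in heart, against 24.1 and 27.5 CPM in kidney and 63.4 and 40.7 CPM in liver. The differences of 1.37 ± 0.34 and -1.36 ± 0.33 had adjusted p-values of 0.163 and 0.155. Of glycogen phosphorylases, Pygb (brain form) was ordered higher at 0.60 ± 0.17 and Pygl (liver form) lower at -1.14 ± 0.33, while Pygm (muscle form), at 0.96 ± 0.40, was not ordered. Of pyruvate kinases, Pkm was ordered higher at 0.80 ± 0.28 and Pklr lower at -1.12 ± 0.45. Eef1a1, the common elongation factor form, was ordered lower at -0.70 ± 0.29 by a gap that rounds to 0.00, against 2.44 ± 0.34 for Eef1a2. Of these members only Eef1a2 passed. Slc2a1, Slc2a4, Hk1, Hk2, the phosphofructokinases, the glycogen synthases, Aldoa, Aldoc and Fbp2 were not ordered.

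**Figure D4:**
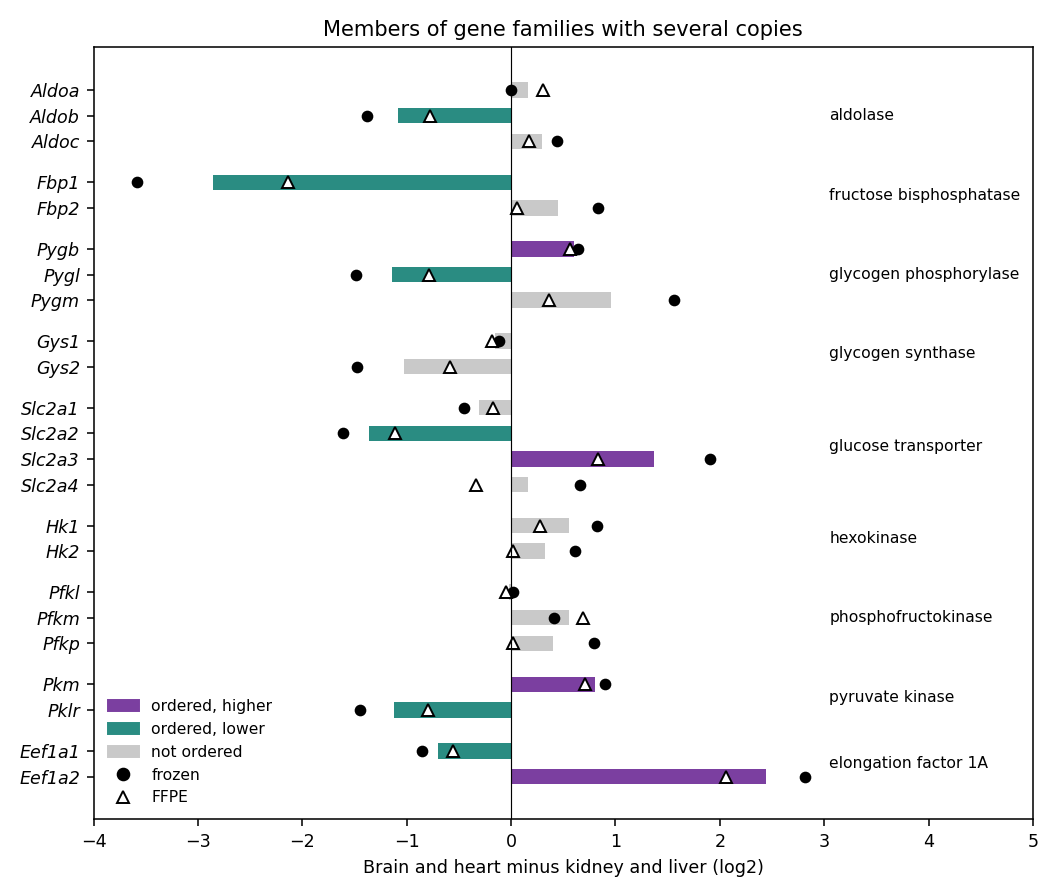
Log2 difference of brain and heart minus kidney and liver for the members of 9 gene families (bars), with the frozen difference as a filled circle and the FFPE difference as an open triangle. Bars are coloured by whether a gene was ordered higher, ordered lower or not ordered. Glucose transporter, glycogen phosphorylase, pyruvate kinase and elongation factor 1A families each have ordered members on both sides of 0.

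A further set of genes had wide gaps without passing, and was chosen after the values were seen. Higher in brain and heart were Lrrc3b at 2.30 ± 0.33 (adjusted p = 0.0506), Cpe, the carboxypeptidase that matures peptide hormones, at 1.83 ± 0.28 (adjusted p = 0.0531), Cygb, cytoglobin, at 1.50 ± 0.22 (adjusted p = 0.0531) and Gpr22, an orphan receptor of brain and heart, at 2.66 ± 0.45 (adjusted p = 0.0742). Gpr22 had 205 and 171 CPM in frozen and FFPE brain and 72.0 and 74.6 CPM in heart, against 10.1 and 36.2 CPM in kidney and 20.6 and 15.5 CPM in liver, and it overlaps Cog5. Lower in brain and heart was Mettl7b, a methyltransferase-like protein, at -4.33 ± 0.68 (adjusted p = 0.056), which overlaps Itga7. Mettl7b had 5.20 and 3.51 CPM in brain and 1.98 and 6.28 CPM in heart, against 57.1 and 24.4 CPM in kidney and 307 and 87.6 CPM in liver. Its frozen heart value corresponds to 3 reads and its frozen brain value to 12, so the size of its difference is uncertain. Cfb, complement factor B, had 18.9 and 19.6 CPM in brain and 22.3 and 22.5 CPM in heart, against 53.9 and 55.7 CPM in kidney and 354 and 149 CPM in liver, with an adjusted p of 0.131.

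Kidney, and among higher genes heart, was more often the organ of its pair nearest to the divide. Among ordered genes higher in brain and heart, heart was the lower of the pair for 66.1% of genes in frozen and 60.2% in FFPE tissue, and kidney the higher of the other pair for 70.2% and 61.9%. Among ordered genes lower in brain and heart, kidney was nearer to the other side than liver for 72.9% in frozen and 65.3% in FFPE tissue, and heart nearer than brain for 51.3% and 53.8%. Liver, and among higher genes brain, thus more often held the extreme value of its pair. Among lower genes brain and heart were nearly even. Without both heart libraries 881 genes passed, 603 higher and 278 lower, against 3 without both brain libraries, 91 without both kidney libraries and 1 without both liver libraries.

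The median difference between the sides was smaller in FFPE than in frozen tissue. For ordered higher genes it was 0.63 in FFPE and 1.03 in frozen tissue on the log2 scale, and for ordered lower genes -0.53 in FFPE and -0.77 in frozen tissue. Over all tested genes the median size of the difference was 0.27 in FFPE and 0.42 in frozen tissue. In a limma test of whether the side difference was equal in both preservation types, 0 genes passed, 701 had an unadjusted p under 0.05 and the smallest adjusted p was 1.0. The 3 genes with the smallest unadjusted p in this test were Pck1, Slc3a1 and Gdf5. They were taken among genes ordered in frozen tissue, with a symbol as for named genes and a mean log2 of at least 3. Choosing by the frozen order favours large frozen differences, and so a smaller or reversed FFPE difference. At Pck1 the log2 difference was -1.78 in FFPE and -4.47 in frozen tissue, so it was smaller in size in FFPE. FFPE minus frozen was 2.69 ± 0.48. Slc3a1, a subunit of the cystine transporter, differed by -0.93 in FFPE and -3.91 in frozen tissue, with only 4 reads in frozen heart. Gdf5, a growth factor of joints, differed by -0.50 in FFPE and 1.86 in frozen tissue, so its direction was not the same. It had only 9 reads in frozen kidney and 10 in frozen liver.

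Features that the rule did not use, gene length and position, were read from the RefSeq table for 94.5% of ordered higher and 96.7% of ordered lower genes. Ordered higher genes had a median annotated length of 17463 bp with an upper quartile of 70981 bp, ordered lower genes 15310 and 33275 bp, and all tested genes 15577 and 41198 bp. The upper quartile was thus longest for genes higher in brain and heart. The nearest tested neighbour that does not overlap was itself ordered higher for 9.79% of ordered higher genes, against 5.28% of all genes. It was ordered lower for 13.2% of ordered lower genes, against 6.61% of all genes. No test was made of these shares.

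Markers of cell types that all the organs contain are set here beside the shares of all genes, 5.56% ordered higher and 6.3% lower. Of 12 endothelial markers 0 were ordered and their median log2 difference was 0.04, and of 12 immune markers 1 was ordered higher and 1 lower (8.33% each), with a median of 0.00. Of 12 fibroblast and smooth muscle markers 1 was ordered higher (8.33%), with a median of 0.35, and of 6 tested red blood cell genes 1 was ordered lower (16.7%), with a median of -0.32. Of 20 housekeeping genes 1 was ordered each way, with a median of -0.06. Among markers of the organs' own cells, 3 of 20 neuron (15.0%), 1 of 16 glia (6.25%) and 3 of 18 cardiomyocyte markers (16.7%) were ordered higher. Of 16 tubule and 16 hepatocyte markers, 3 each were ordered lower (18.8%). The mean log2 level of the cardiomyocyte markers was 5.71 in frozen and 5.64 in FFPE heart, and 2.95 to 4.61 in the other 6 libraries. That of the endothelial markers was 4.18 to 6.18 in brain and heart and 4.61 to 5.45 in kidney and liver. The part of cell type proportions in the results above was not tested.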

How the data were processed

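H3K4m3 was read in 8 deposited columns, brain, heart, kidney and liver, each frozen and FFPE. The values, as deposited, are log2 values normalized by the authors, 1 per gene. The submitters' processing notes name Bowtie2, featureCounts, limma and the build mm10, without versions, and the part of a gene counted, the use of strand or the handling of inputs was not given in the sources used here. Whole reads were recovered from the deposited log2 values, within 0.001, for 100% of values. No inputs were used here. Library depth is known only from these reads, and counting precision falls with it: 3 reads correspond to 0.537 CPM in FFPE kidney and 1.69 CPM in frozen heart.

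Genes with a mean log2 value of at least 0 were kept, 25680 of 27179. They were tested with limma 3.58.1 in R 4.3.3 (empirical Bayes moderation with trend) on log2 values, with side and preservation as terms and 5 residual degrees of freedom. P-values were adjusted by Benjamini-Hochberg over all tested genes, and a gene passed at an adjusted p under 0.05. Separate animals are not given, and 2 libraries of 1 organ are not separate organs, so p-values reflect only how these 8 libraries vary, which may be technical. The organ model had 3 residual degrees of freedom. The order of organs was described without a test. The script was tested on simulated data.

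The members and lists were chosen with earlier results of these data known. Named genes were those with a symbol (no Gm, Rik, Mir, Olfr or Vmn number), a mean log2 of at least 3, that passed and were ordered, up to 12 a direction by gap. To these came 3 members of each list with the smallest p, the member furthest against each list, 3 interaction genes and the genes at the edges of the rule. A few genes meeting it are left unreported here. Other ordered list members, wide gaps and families were chosen after their values were seen. Lists were described by counts and medians. Mkl2, Dak, Tmem27, Hbb-bs and Hbb-bt had no measured entry under these symbols. Coordinates and promoters are from RefSeq GRCm38.p6, with 24248 tested gene IDs matched and 18321 with a promoter. Alternatives were other models, scalings, weights and filters, each preservation type alone, and each library or organ left out.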

Additional observations from a re-analysis of the deposited data

Results flagged for a closer look

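In 6 of 154 groups of 4 libraries, 1 library stood apart from the other 3 by the Dixon ratio, where chance flags about 1 in 20 groups. Among brain and heart libraries, FFPE heart had 56.8 CPM at Phyhip, against 101 to 112 CPM in the other 3. Frozen heart had 21.2 CPM at Rassf7, against 16.1 to 16.8 CPM, and 22.3 CPM at Mef2c, against 52.8 to 60.4 CPM. FFPE brain had 9.96 CPM at Fbp1, against 4.75 to 5.36 CPM. Among kidney and liver libraries, frozen liver had 8.83 CPM at Phyhip, against 16.7 to 18.5 CPM. Frozen kidney had 67.4 CPM at Pygb, against 44.1 to 45.9 CPM. Frozen heart is also the shallowest library.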

How the results depend on the processing

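The number of genes that passed, 21, was 2248 with a term for each organ, 3 with organ as a correlation block (estimated correlation 0.229), 10 without the preservation covariate, 116 after quantile normalization, 11 with precision weights, 13 without the low-value filter and 15 with a mean log2 of at least 3. It was 0 in frozen libraries alone (1951 at an unadjusted p under 0.05 in limma) and 0 in FFPE libraries alone (1170). Leaving out 1 library gave 0 to 28. Leaving out both libraries of an organ gave 3 (brain), 881 (heart), 91 (kidney) and 1 (liver). The 3 genes called with the block were all higher in brain and heart, and quantile normalization split its calls into 49 higher and 67 lower. All 21 genes kept their sign in every alternative that tested them. Apart from quantile normalization, which changes the values, their order in both preservation types fixes this in advance, so it is no support. All 21 passed with the organ term, after quantile normalization and without both heart libraries, whereas 8 did without the covariate and 14 without FFPE heart. The adjusted p of the 21 ranged from 3.15e-05 with the organ term to 0.955 in FFPE libraries alone. The fits differ in residual degrees of freedom and in what counts as spread; other causes of the changes were not tested. The count of ordered genes, 3045, was 3085 after quantile normalization, 3115 without the filter, 2545 with a mean log2 of at least 3 and 390 with a gap of at least 0.5. The test of equal differences in both preservation types called 0 genes under its 3 alternatives, with 442 to 788 at an unadjusted p under 0.05. No paired analysis was possible because the columns carry no replicate number. Levels near 3 reads, such as Krt18 in frozen brain, are limited by depth.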
